A study of Rattus norvegicus with 12 samples.

Results

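The genes described here are 30 rat genes of cholesterol synthesis and sterol regulation, listed by symbol: the enzymes from acetyl-CoA to cholesterol, the proteins that sense sterols and set transcription, sterol transporters, and 3 enzymes of fatty acid synthesis and desaturation that share the same transcription factors. Of the 30, 29 matched a probe of the array through a RefSeq transcript, out of 21250 genes or unnamed targets tested. Srebf1 matched none and has no value. All 29 lay well above background on all 12 arrays. The list names the genes without regard to how they changed, but it was drawn up with earlier results of these data known.

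The RNA came from primary hippocampal neurons of embryonic day 18 Wistar rats, used after 14 to 15 days in culture. Blocked cultures received 50 µM GYKI-52466, an antagonist of AMPA-type glutamate receptors, together with 10 µM MK-801, a channel blocker of NMDA-type receptors, for 9 h or 26 h. Untreated cultures were taken at the same times, and each of the 4 groups had 3 arrays from separate cultures, each array hybridised with 1 colour. All cultures were of the same strain, and the comparison asks which transcripts change while excitatory synaptic input is silenced.

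Cholesterol is built from acetyl-CoA through mevalonate, isoprenoid units, squalene and lanosterol. When sterol in the endoplasmic reticulum is low, Scap escorts the SREBP transcription factors to the Golgi for cleavage, and the freed factors switch on nearly every enzyme of the route. When sterol is high, Insig proteins hold Scap back, while LXR receptors switch on exporters such as Abca1 and Abcg1. The brain makes its own cholesterol, since little crosses from the blood, and neurons need it for membranes and synapses.

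SREBP factors bind sterol regulatory elements, often next to CCAAT boxes, and the promoters of the genes that rose under blockade are shown here as sequence. Promoters of 300 bases (250 before the start of the gene and 50 after it) were taken from RefSeq for build GRCr8, which held 25 promoters of 24 of the 30 genes. None was in the table for Pmvk, Stard4, Abcg1, Fdft1, Sqle and Fasn. The letters searched on both strands were TCACNCCAC (a sterol regulatory element), CACGTG (an E-box) and CCAAT, the last 2 chosen after the data were seen, and capitals mark matches. The Scd promoter lies at chr1:253231682-253231981 on the minus strand, that of Dhcr7 at chr1:208444184-208444483 on the plus strand, that of Insig1 at chr4:8057720-8058019 on the minus strand and that of Mvk at chr12:47819454-47819753 on the minus strand.
Scd: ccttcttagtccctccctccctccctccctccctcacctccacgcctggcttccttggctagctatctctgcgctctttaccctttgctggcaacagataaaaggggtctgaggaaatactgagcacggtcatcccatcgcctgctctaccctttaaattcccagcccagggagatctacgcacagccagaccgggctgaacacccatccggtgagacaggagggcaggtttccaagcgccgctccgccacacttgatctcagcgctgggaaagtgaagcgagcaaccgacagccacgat
Dhcr7: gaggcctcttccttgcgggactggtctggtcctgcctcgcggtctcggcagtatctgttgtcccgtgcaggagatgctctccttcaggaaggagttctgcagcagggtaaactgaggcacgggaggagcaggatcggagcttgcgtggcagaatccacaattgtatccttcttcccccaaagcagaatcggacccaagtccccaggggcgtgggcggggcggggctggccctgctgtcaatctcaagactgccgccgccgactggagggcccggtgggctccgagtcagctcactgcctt
Insig1: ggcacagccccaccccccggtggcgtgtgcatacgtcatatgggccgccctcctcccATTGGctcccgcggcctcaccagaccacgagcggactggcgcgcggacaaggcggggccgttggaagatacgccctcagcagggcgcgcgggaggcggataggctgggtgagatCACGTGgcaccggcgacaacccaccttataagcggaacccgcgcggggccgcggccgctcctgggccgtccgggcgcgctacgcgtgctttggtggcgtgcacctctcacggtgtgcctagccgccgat
Mvk: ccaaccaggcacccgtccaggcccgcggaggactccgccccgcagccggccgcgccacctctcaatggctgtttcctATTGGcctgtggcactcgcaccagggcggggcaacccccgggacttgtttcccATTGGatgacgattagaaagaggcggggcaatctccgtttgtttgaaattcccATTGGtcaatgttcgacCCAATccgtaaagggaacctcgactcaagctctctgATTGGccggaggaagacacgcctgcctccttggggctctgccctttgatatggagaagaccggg

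TCACNCCAC was in 374 of 33469 promoters of this length (1.12%) and in 0 of the 25 promoters of these genes. That says only that these letters are not in these windows. CACGTG was in 6.42% of all promoters and in those of Abca1, Insig1, Sc5d and Scap, where it lies 79 bases before the start of Insig1. CCAAT was in 37.5% of all promoters and in 18 of the 25, and none of the searched letters was in the windows of Scd or Dhcr7. The Mvk window held 5 CCAAT matches, at 173, 120, 67, 50 and 14 bases before the start.

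Levels are given as log2 of a probe's processed signal after subtraction of the array's own 75th percentile, so 0 is the level of a fairly bright probe. Probes differ in their response, and no level is compared between genes. On each array, 77.6% to 86.8% of its 42877 spots other than controls were well above background. The 12 arrays lay on 6 slides scanned on 2 days. Day 1 held the untreated 9 h and blocked 26 h arrays, and day 2 the blocked 9 h and untreated 26 h arrays. An effect at 1 time therefore compares arrays of different days, while their mean weighs each day and slide equally. All neuron markers (10 of 10) were well above background on every array, as were 9 of 9 measured astrocyte markers and 10 of 10 of the oligodendrocyte lineage, so the cultures were mixed. In such bulk RNA, fewer cells of a type and less RNA per cell cannot be told apart.

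Averaged over both times, blocked cultures held more mRNA for 5 of the 29 measured genes and less for none. Scd, which desaturates stearoyl-CoA, rose 1.78-fold, the sterol sensor Insig1 1.69-fold, the sterol exporter Abcg1 1.68-fold, Dhcr7, which completes the last step to cholesterol, 1.58-fold, and mevalonate kinase Mvk 1.30-fold (n = 3 arrays in each of 4 groups). They passed an adjusted p of 0.05 in limma with Benjamini-Hochberg over all targets, where 2.23% of targets passed as higher and 2.22% as lower. At an unadjusted p under 0.05, limma gave 9 higher and 0 lower, and 8.31% and 8.16% of all targets. The median change of the 29 genes was 0.27 on the log2 scale and 25 were above 0, against a median of -0.02 over all targets, of which 9450 of 21250 were above 0. Under the other scalings the median of the 29 ran from 0.28 to 0.32 and 25 to 27 were above 0.

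**Figure D1:**
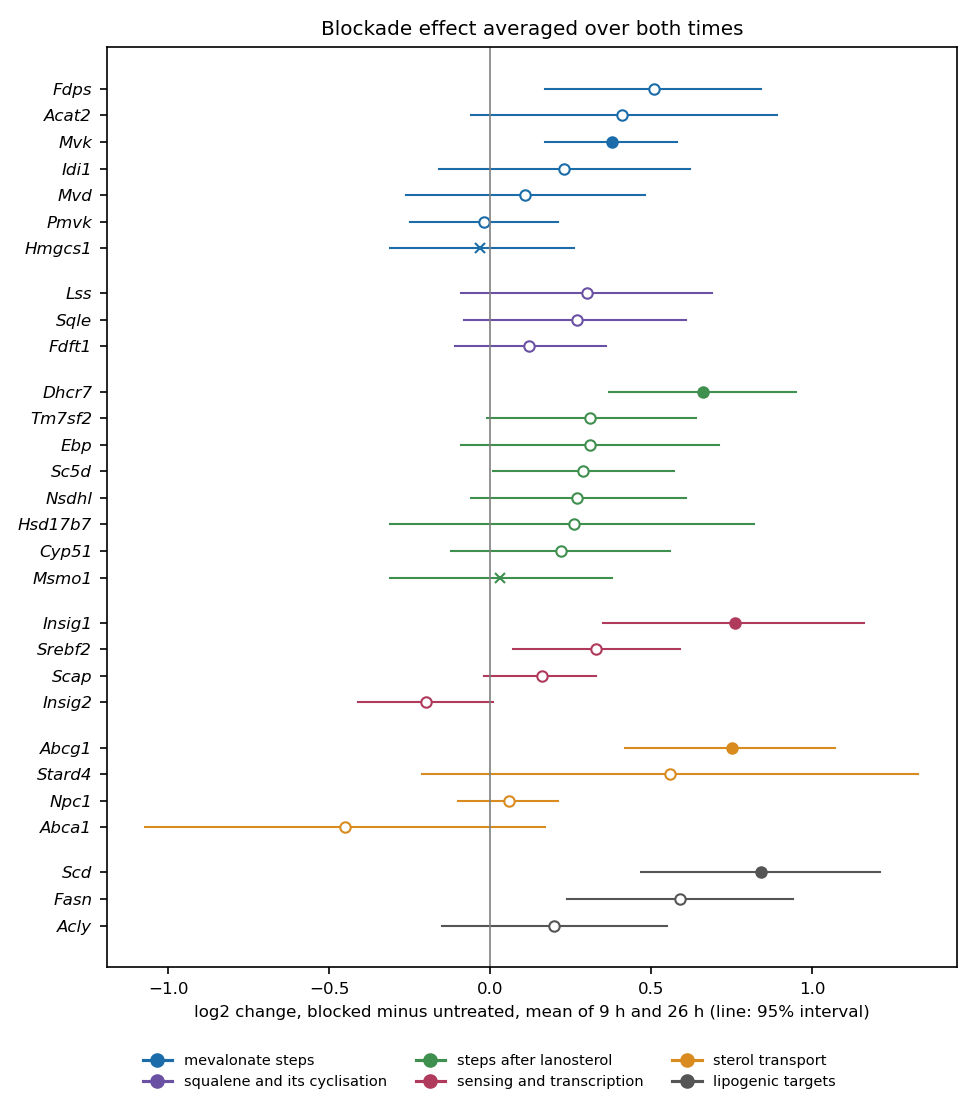
Change of each of the 29 measured genes under blockade, averaged over 9 h and 26 h, in log2 units on the horizontal axis (lines are 95% intervals), grouped by role. Filled circles mark the 5 genes past the threshold, open circles the others, and crosses the 2 genes with saturated probes. Abca1 and Insig2 lie to the left of 0, at -0.45 and -0.20.

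Among the 7 genes of the mevalonate steps, Mvk passed and 6 did not. The farnesyl diphosphate synthase gene Fdps gave 0.51 ± 0.15 (SE, limma adjusted p = 0.102), with 0.53 on its other probe. The thiolase gene Acat2 gave 0.41 ± 0.21, the isomerase gene Idi1 0.23 ± 0.18, the decarboxylase gene Mvd 0.11 ± 0.17 and the second kinase gene, Pmvk, -0.02 ± 0.10. The synthase gene Hmgcs1 was saturated on all arrays of 3 groups and on 1 of 3 untreated 26 h arrays, and its change cannot be read. Acat2 was saturated on 1 blocked 26 h array.

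The 3 genes that make and close squalene gave 0.30 ± 0.18 for the cyclase gene Lss, 0.27 ± 0.16 for the epoxidase gene Sqle and 0.12 ± 0.11 for the squalene synthase gene Fdft1. None of them passed limma, and 0 had an unadjusted p under 0.05. Of the 8 genes after lanosterol, Dhcr7 passed. Tm7sf2, a sterol reductase gene, gave 0.31 ± 0.15, and the isomerase gene Ebp gave 0.31 ± 0.18. Sc5d, a desaturase gene, gave 0.29 ± 0.13, and Nsdhl, a demethylation enzyme gene, gave 0.27 ± 0.15. Hsd17b7, for the ketone reduction, gave 0.26 ± 0.25, and Cyp51, for the first demethylation, gave 0.22 ± 0.15. The oxidase gene Msmo1 was saturated like Hmgcs1 (all arrays of 3 groups). Without these 2 saturated genes the median of 27 was 0.29.

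Among the sensors and factors, Insig1 passed. Srebf2, which encodes the SREBP that drives cholesterol synthesis, gave 0.33 ± 0.12 (limma adjusted p = 0.180), the escort gene Scap 0.16 ± 0.08 and Insig2, the other retention gene, -0.20 ± 0.09 (limma adjusted p = 0.326). Of the transport genes, Abcg1 passed, whereas its partner in export, Abca1, gave -0.45 ± 0.28 (limma adjusted p = 0.509). The sterol carrier gene Stard4 gave 0.56 ± 0.35, with -0.15 on a much dimmer probe, and Npc1, which releases cholesterol from lysosomes, 0.06 ± 0.07. Of the lipogenic enzymes, Scd passed, the fatty acid synthase gene Fasn gave 0.59 ± 0.16 (limma adjusted p = 0.0701) and the citrate lyase gene Acly 0.20 ± 0.16.

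Scd lay at 1.35, 1.40 and 1.49 on the untreated 9 h arrays (replicates 1 to 3) and at 1.75, 2.30 and 2.25 on the blocked ones. At 26 h it lay at 1.17, 0.90 and 0.83 untreated and at 1.39, 2.38 and 2.09 blocked. Blocked arrays lay above untreated ones without overlap at both times, and replicate 1 was the lowest blocked array both times. The average change was 0.84 ± 0.17 (SE, limma adjusted p = 0.0192). On each of the 6 slides the blocked array read higher, by 0.54 on average on day 1 (blocked 26 h minus untreated 9 h) and by 1.13 on day 2 (blocked 9 h minus untreated 26 h). The call held in 10 of 12 fits that left out a single array and was lost without blocked 9 h replicate 2 or untreated 26 h replicate 2.

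Dhcr7 lay at 0.79, 0.76 and 0.72 untreated at 9 h and at 2.10, 2.09 and 1.90 blocked. The 26 h arrays read 2.26, 1.57 and 1.42 untreated and 1.89, 1.82 and 1.67 blocked. The untreated 9 h arrays alone were low, and the groups at 26 h overlapped. The average change was 0.66 ± 0.13 (SE, limma adjusted p = 0.0195), higher in the blocked array on 5 of 6 slides, with 1.04 on day 1 and 0.28 on day 2. The call was lost when blocked 9 h replicate 1 or 2, untreated 26 h replicate 2, or blocked 26 h replicate 1 or 2 was left out.

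Abcg1 had the same shape. It lay at -0.44, -0.74 and -0.92 untreated and at 0.89, 0.50 and 0.08 blocked at 9 h, and at 0.32, 0.07 and 0.11 untreated and 0.65, 0.54 and 0.21 blocked at 26 h. The untreated 9 h arrays lay below the other 9, and the 26 h groups overlapped. Its average change was 0.75 ± 0.15 (SE, limma adjusted p = 0.0179), with 1.17 on day 1 and 0.32 on day 2. It was no longer called without untreated 26 h replicate 2 or blocked 26 h replicate 2.

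Insig1 read 1.09, 0.88 and 0.78 untreated and 2.05, 1.86 and 1.66 blocked at 9 h. At 26 h it read 2.09, 1.27 and 0.89 untreated against 1.87, 2.17 and 1.94 blocked. The groups parted at 9 h, while at 26 h untreated replicate 1 lay among the blocked arrays and the other untreated arrays below them. The average was 0.76 ± 0.18 (SE, limma adjusted p = 0.0437), with 1.08 on day 1 and 0.44 on day 2. Of the 12 fits without a single array, only the fit without untreated 26 h replicate 1 kept this call.

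Insig2 read -1.47, -1.56 and -1.61 untreated and -1.84, -2.04 and -2.00 blocked at 9 h, and -1.49, -1.97 and -1.92 untreated and -1.70, -1.92 and -1.74 blocked at 26 h. Blocked arrays lay below untreated ones at 9 h, overlapped them at 26 h, and read lower on 6 of 6 slides, but Insig2 passed in none of the 3 blockade comparisons. With the replicate block it was called lower at 9 h, as it was under array weights, under normexp background correction, and when untreated 26 h replicate 1 or replicate 1 of all groups was left out. Srebf2 read 2.0, 1.85 and 1.61 untreated and 2.65, 2.32 and 2.18 blocked at 9 h, and 2.62, 2.36 and 2.14 untreated and 2.64, 2.44 and 2.33 blocked at 26 h. As with Dhcr7, the untreated 9 h arrays lay below all others.

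Mvk read -1.97, -1.75 and -1.78 untreated and -1.24, -1.21 and -1.31 blocked at 9 h, and -1.0, -1.43 and -1.29 untreated and -1.24, -0.91 and -1.03 blocked at 26 h. Again the untreated 9 h arrays were the low ones. The average was 0.38 ± 0.09 (SE, limma adjusted p = 0.0477), with 0.77 on day 1 and -0.01 on day 2. The call was kept in 2 of 12 fits without a single array, those without replicate 1 of untreated or of blocked 26 h.

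**Figure D2:**
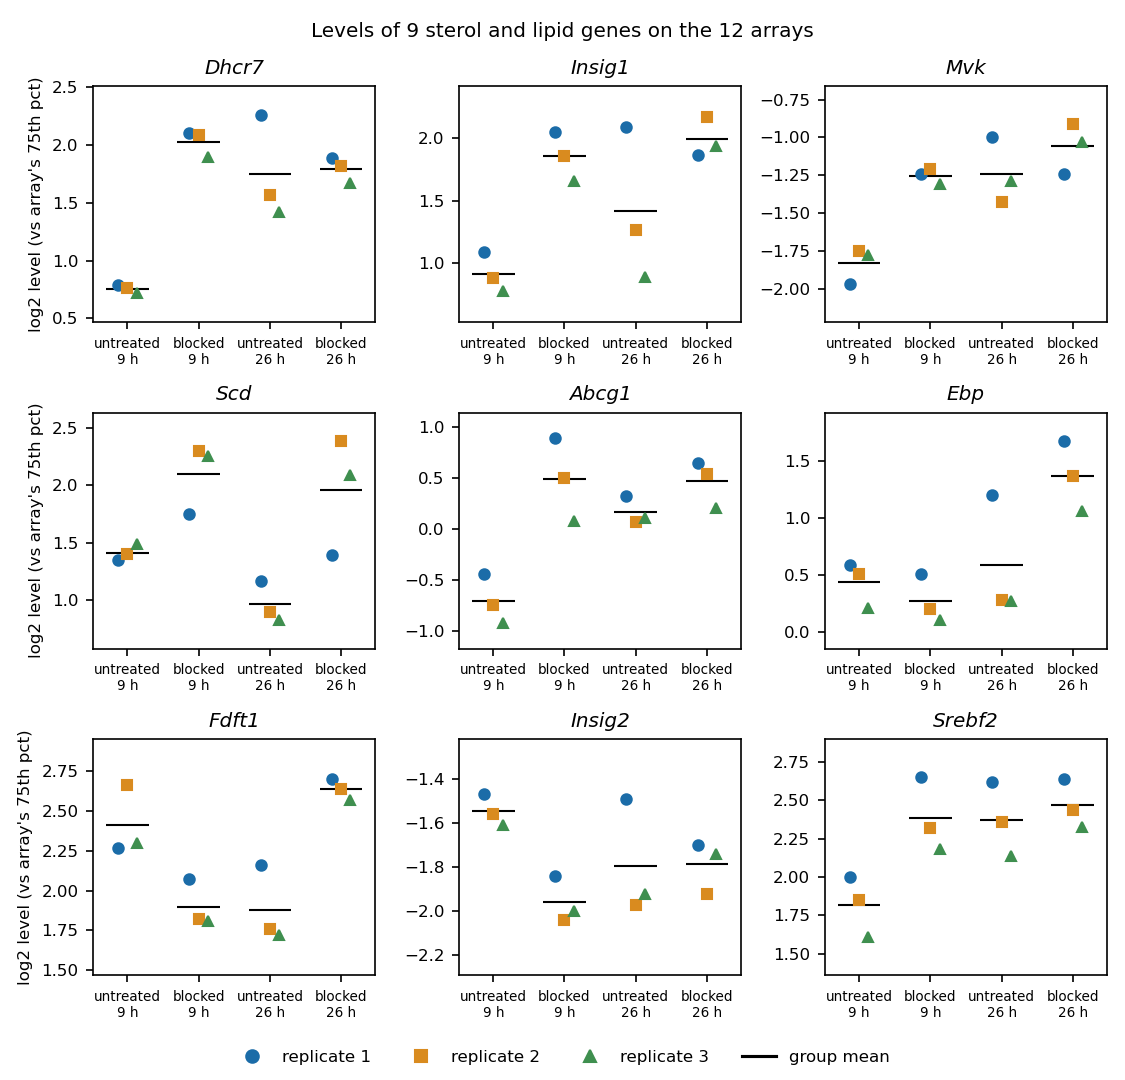
Level of 9 genes on each of the 12 arrays (vertical axis, log2 units, scaled separately for each gene), by group, with a bar at the mean of each group and a symbol for each replicate number. The untreated 9 h arrays of Dhcr7, Abcg1, Mvk and Srebf2 lie below all others, and replicate 1 of untreated 26 h stands high for Dhcr7, Insig1 and Ebp.

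With the replicate number fitted as a block, 10 genes passed as higher in the average and 0 as lower, with 13.2% of all targets called: Fdps, Nsdhl, Sc5d, Srebf2 and Fasn joined the 5. With the slide as a block 8 passed, with 10.8% of all targets called. The count ran from 0 (without untreated 26 h replicate 2, where 8 genes were higher at an unadjusted p under 0.05 in limma) to 8 (without untreated 26 h replicate 1). It was 1 without replicate 2 of blocked 9 h or of blocked 26 h and 2 without blocked 9 h replicate 1. It was 4 without untreated 9 h replicate 1 and 3 without any of the other 6 arrays. The share of all targets called was 4.45% with all arrays, 2.64% in the fit with 0 and 4.62% in that with 8. It was 2.80%, 2.64% and 2.83% in the fits with 1, 1 and 2, and 4.35% in that with 4. In the 6 fits with 3 it ran from 2.96% to 3.63%.

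At 9 h, 7 genes rose and 1 fell, where 11.4% of all targets passed as higher and 9.63% as lower. Dhcr7 rose by 1.28 ± 0.19 on the log2 scale (SE, limma adjusted p = 0.00182), Abcg1 by 1.19, Insig1 by 0.94, Fasn by 0.82, Scap by 0.58, Mvk by 0.58 and Srebf2 by 0.57. Fdft1 fell by 0.51 ± 0.15 (limma adjusted p = 0.0355). Of the 4 measured genes of sensing and transcription, 3 were thus among the 7, and Insig2 gave -0.41. At 26 h Insig1 gave 0.58, Srebf2 0.09 and Scap -0.26, and none of them passed. Both comparisons are between arrays of different scan days, and the levels of Scap did not overlap between days. Of the 27 genes without saturation, blocked arrays lay wholly above untreated ones for 11 and wholly below for 4, against 18.5% and 16.2% of all targets. Scd gave 0.68 ± 0.24 (limma adjusted p = 0.0644).

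Neuron markers changed at 9 h too, between arrays of different scan days. Of 10 markers, 5 rose (Rbfox3, Syn1, Snap25, Slc17a7 and Neurod6) and 0 fell in limma (7 higher and 0 lower at an unadjusted p under 0.05). Their summed level ran from 4.59 to 4.86 untreated and from 5.00 to 5.26 blocked. Their effect at 26 h minus that at 9 h passed as lower for 5 and as higher for 0, with a median of -0.82. Over all targets 15.9% passed as lower and 12.7% as higher. Time and scan day cannot be told apart in that difference. Among 9 astrocyte markers Aqp4 and Slco1c1 fell at 9 h, by 0.51 and 0.78, and 3 of the 9 were above 0. Among 10 oligodendrocyte lineage markers Cspg4 fell by 1.07 and 2 were above 0. At an unadjusted p under 0.05, limma gave 1 higher and 1 lower in that list. Among 9 fibroblast, meningeal and vascular markers Kdr fell by 0.98 and 2 were above 0. Cx3cr1 rose by 0.74 among 8 microglia markers, 6 of them above 0. No other marker of these lists passed. The part of these cells in the result was not tested. With the replicate block, 10 sterol genes passed as higher and 3 as lower (Fdft1, Insig2 and Npc1) at 9 h, with 35.9% of all targets called. Dhcr7, Abcg1, Mvk and Scap passed in all 12 fits without a single array. The count was 4 without untreated 9 h replicate 2, with 13.4% of all targets called, against 21.1% with all arrays. It was 5 without untreated 9 h replicate 3 (18.5%) or blocked 9 h replicate 2 (13.2%). Insig1 was lost without untreated 9 h replicate 2 or 3 or blocked 9 h replicate 1 or 2, and Fasn without untreated 9 h replicate 2 or 3 or blocked 9 h replicate 1. Srebf2 was lost without those 4 arrays of Insig1, untreated 26 h replicate 2 or blocked 26 h replicate 2, and Fdft1 without untreated 9 h replicate 2, blocked 9 h replicate 2 or 3, or blocked 26 h replicate 2 or 3.

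At 26 h, 4 genes rose and 0 fell, where 6.88% of all targets passed as higher and 9.46% as lower, and limma gave 8 higher and 1 lower (Scap) at an unadjusted p under 0.05 (13.1% and 19.1% of all targets). Tm7sf2 rose by 1.02 ± 0.21 (SE, limma adjusted p = 0.0105), Scd by 0.99 ± 0.24 (limma adjusted p = 0.0199), Fdft1 by 0.76 ± 0.15 (limma adjusted p = 0.00886) and Npc1 by 0.34 ± 0.10 (limma adjusted p = 0.0402). The second probe of Npc1 gave -0.07 at 26 h, and the mean of both probes did not pass. Ebp gave 0.78 ± 0.26 (limma adjusted p = 0.0626), Sqle 0.57 ± 0.22 and Idi1 0.54 ± 0.25. For the 27 genes without saturation, blocked arrays lay wholly above untreated ones for 4 and wholly below for 1. The shares of all targets were 15.4% and 22.7%. The median over the 29 genes was 0.34, against -0.05 over all targets. It was 0.53 without untreated 26 h replicate 1 and 0.15 without untreated 26 h replicate 3. Neuron markers gave a median of -0.16 at 26 h, where 1 fell (Syn1) and 0 rose (limma, 0 higher and 3 lower at an unadjusted p under 0.05). Among 10 oligodendrocyte lineage markers Olig1 and Sox10 fell by 0.87 and 0.98, and 2 of the 10 were above 0. Among 9 fibroblast, meningeal and vascular markers Dcn fell by 0.74 and Pecam1 rose by 1.04, with 4 of the 9 above 0. No astrocyte or microglia marker passed at 26 h. The part of these cells in the result was not tested.

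The untreated 26 h cultures differed most among themselves in these genes. Of the 4 groups, they had the widest SD for 25 of 29 genes, against 25.2% of all targets, and replicate 1 was their highest array for 26 of 29, against 31.7% of all targets. Without that array 10 genes passed as higher and 1 as lower at 26 h, with 16.6% of all targets called, against 16.3% with all arrays. Without untreated 26 h replicate 2 only Fdft1 passed, with 6.34% of all targets called. Without blocked 26 h replicate 2 or 3 the count was 2, with 7.61% and 11% of all targets called. Scd was also lost without untreated 26 h replicate 3 or blocked 26 h replicate 2 or 3. Npc1 held in 2 of 12 such fits, those without untreated 9 h replicate 1 or untreated 26 h replicate 3. With the replicate block 8 passed, with 31.7% of all targets called.

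**Figure D3:**
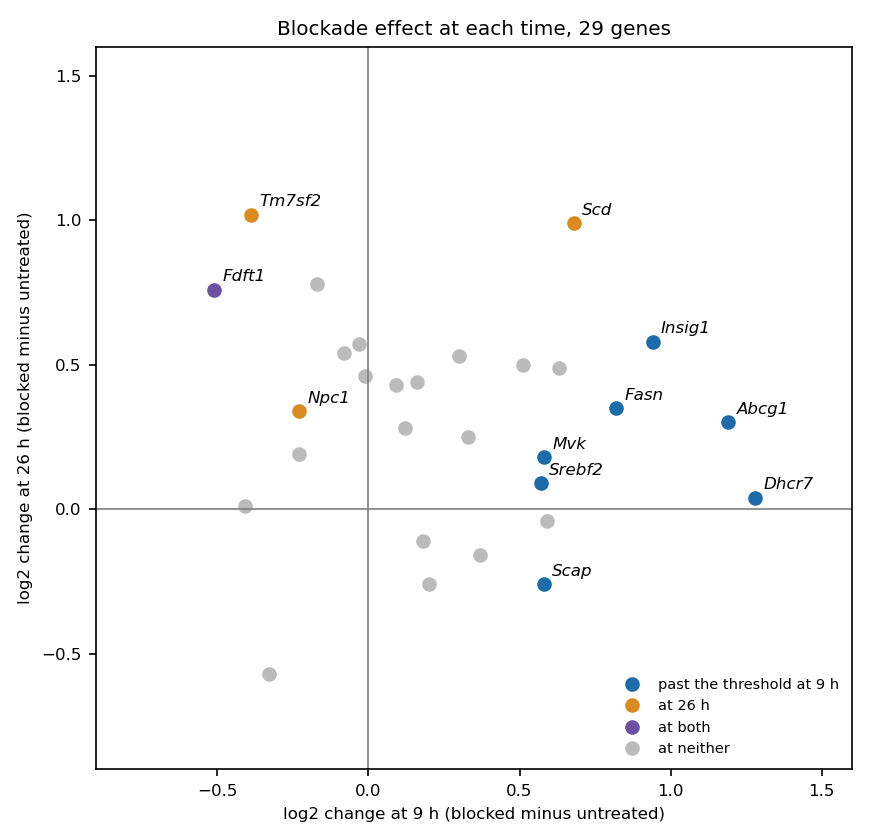
Log2 change under blockade at 9 h (horizontal) against that at 26 h (vertical) for the 29 genes, coloured by the time at which each passed the threshold. Dhcr7 (1.28 and 0.04) and Abcg1 (1.19 and 0.30) lie far right, Scd is at 0.68 and 0.99, and Fdft1 and Tm7sf2 lie left of 0 and above it.

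The difference between the effects (26 h minus 9 h) passed for 6 genes, 3 higher and 3 lower, where 12.7% of all targets passed as higher and 15.9% as lower. It was 1.40 ± 0.29 (SE) for Tm7sf2, 1.26 ± 0.21 for Fdft1 and 0.57 ± 0.14 for Npc1, and -1.23 ± 0.26 for Dhcr7, -0.89 ± 0.29 for Abcg1 and -0.84 ± 0.16 for Scap. This difference is also that between scan days, and time and day cannot be told apart. Fdft1 lay at 2.27, 2.66 and 2.30 untreated and 2.07, 1.82 and 1.81 blocked at 9 h, and at 2.16, 1.76 and 1.72 untreated and 2.70, 2.64 and 2.57 blocked at 26 h. Every day 1 array of Fdft1 (2.27 to 2.70) lay above every day 2 array (1.72 to 2.16). For Scap every day 2 array (1.23 to 1.49) lay above every day 1 array (0.57 to 1.04), and for the other 27 genes the days overlapped. The second probe of Npc1 gave 0.22 at 9 h and -0.07 at 26 h, opposite in sign to its brighter probe (-0.23 and 0.34). Abcg1 held in 3 of 12 fits without a single array (untreated 9 h replicate 1, blocked 9 h replicate 3 or blocked 26 h replicate 1 left out), and the other 5 genes in all 12. With the slide as a block 4 genes passed (Fdft1, Tm7sf2, Dhcr7 and Scap), with 16.6% of all targets called, while Npc1 had a limma adjusted p of 0.0513 and Abcg1 of 0.106. Npc1 was also lost with the mean of its probes (limma adjusted p = 0.560), and Abcg1 with median scaling or the deposited matrix. The count was 11 without untreated 26 h replicate 1 and 10 with the replicate block, with 28.7% and 44.7% of all targets called.

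Over time in culture, averaged over treatment, 2 genes rose from 9 h to 26 h and 0 fell, where 4.93% of all targets passed as higher and 7.78% as lower. At an unadjusted p under 0.05 limma gave 8 higher and 0 lower, and 11.5% and 15.1% of all targets. Ebp rose by 0.62 ± 0.18 (SE, limma adjusted p = 0.0477) and Mvk by 0.39 ± 0.09 (limma adjusted p = 0.0215). Ebp read 0.59, 0.51 and 0.21 untreated and 0.51, 0.20 and 0.10 blocked at 9 h, and 1.20, 0.28 and 0.27 untreated and 1.68, 1.37 and 1.06 blocked at 26 h. The blocked 26 h arrays and untreated 26 h replicate 1 were high, and the other untreated 26 h arrays lay within the 9 h range. Mvk was lost without blocked 9 h replicate 3 or blocked 26 h replicate 2 or 3, and Ebp was kept only without replicate 3 of untreated or blocked 26 h. Without blocked 9 h replicate 3 or blocked 26 h replicate 2 no gene passed, and 3 passed without untreated 26 h replicate 3. In that order, these fits called 8.32%, 8.47% and 9.54% of all targets, against 12.7% with all arrays.

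The replicate number went with the level of most of these genes. In all 4 groups, replicate 3 lay below the mean of replicates 1 and 2 for 21 of 29 genes (72.4%), against 17.4% of all targets, and above it for Npc1 and Abca1. The mean gap was -0.90 for Stard4, -0.66 for Hsd17b7, -0.52 for Acat2, -0.49 for Lss and -0.44 for Nsdhl. Abca1, the exporter, went the other way by 0.67. Replicate number held 95.8% of the within-group variance of Srebf2 and 87.0% of that of Nsdhl, the highest shares among the 29 genes. It held 27.2% for Pmvk, 19.5% for Scap and 1.92% for Mvk. This share was not computed over all targets. With median scaling the count was 24 of 29, against 32.3% of all targets, whose median gap went from 0.11 to -0.02, and Npc1 was then mixed. The median SD within groups was 0.282 for the 29 genes and 0.214 for all targets.

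Other markers moved with the replicate number. The summed level of 9 fibroblast, meningeal and vascular markers was 1.73 to 2.39 higher in replicate 3 than in the mean of replicates 1 and 2, depending on the group, with 6 of the 9 genes higher and 3 lower. That of 10 oligodendrocyte lineage markers was 0.02 to 0.43 higher, with 8 of the 10 genes higher. That of 9 astrocyte markers was 0.24 to 0.35 higher, and the gap of 10 neuron markers ran from -0.40 to -0.16. The part of these cells in the sterol genes' levels was not tested.

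**Figure D4:**
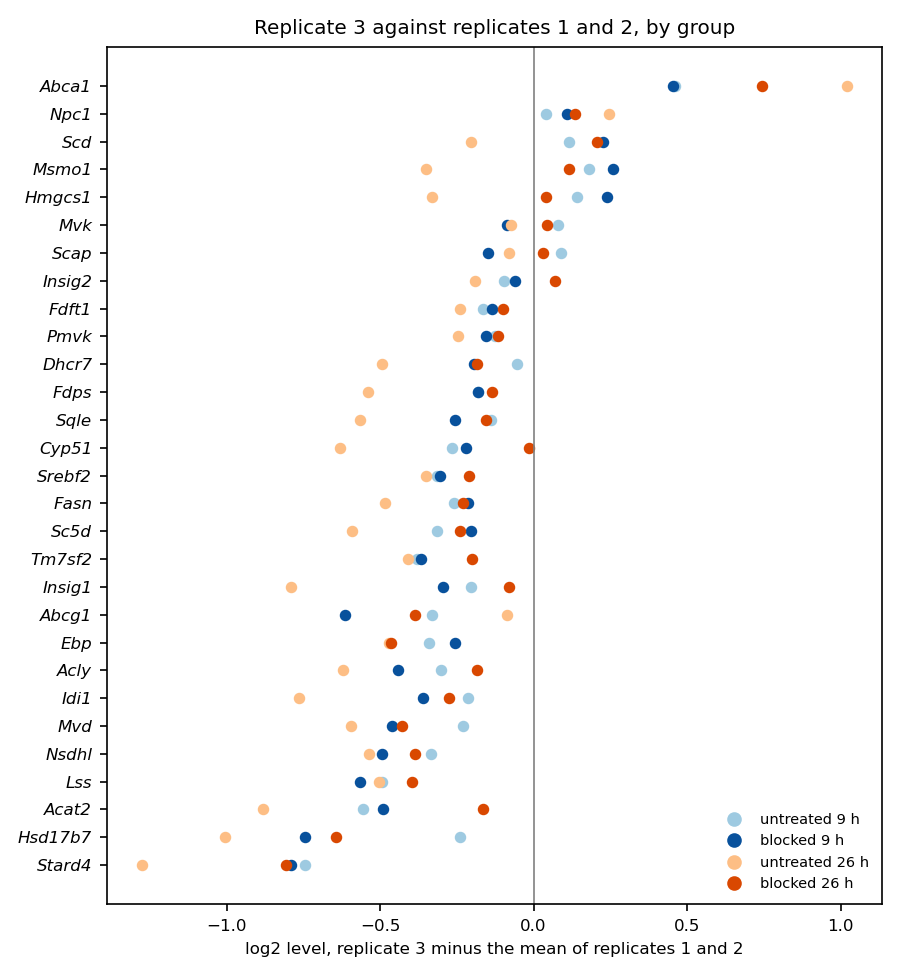
Level in replicate 3 minus the mean of replicates 1 and 2 (horizontal axis, log2 units) for each of the 29 genes, with 1 point for each of the 4 groups. All 4 points lie left of 0 for 21 genes and right of 0 for Npc1 and Abca1.

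Of 40 other genes of the pathway, covering fatty acid synthesis, sterol uptake, esterification, oxidation and the SREBP machinery, 35 were measured. In the average 2 rose and 0 fell in limma (5 higher and 4 lower at an unadjusted p under 0.05), with a median change of 0.05. Aacs, which turns acetoacetate into acetoacetyl-CoA for lipid synthesis, rose by 0.74 ± 0.14 (SE, limma adjusted p = 0.0156), and Dgat2, which makes triglycerides, by 0.39 ± 0.09 (limma adjusted p = 0.0296). Aacs gave 1.44 at 9 h and 0.04 at 26 h, and Dgat2 gave 0.89 and -0.10. Each single time compares arrays of different scan days. At 9 h 5 rose and 3 fell, at 26 h 2 rose and 3 fell, and over time 1 fell (Cnbp) and no other passed in limma (2 higher and 2 lower at an unadjusted p under 0.05). Over all targets, 2.23% passed as higher and 2.22% as lower in the average, and 11.4% and 9.63% at 9 h. At 26 h these shares were 6.88% and 9.46%, and over time 4.93% and 7.78%. At 9 h Aacs rose by 1.44, Osbp, a sterol-exchange protein gene, by 0.97 and Mbtps2, a protease that frees SREBP, by 0.50, while Mylip, which marks lipoprotein receptors for breakdown, fell by 0.51. At 26 h the lipoprotein receptor gene Vldlr fell by 0.94 and Cyp27a1, a sterol hydroxylase gene, by 0.67. Me1, which supplies NADPH, fell by 0.36 at 9 h and rose by 0.78 at 26 h, and Stard3, a sterol transfer gene of late endosomes, fell by 0.45 and rose by 0.50. Nr1h2, which encodes an LXR receptor, rose by 0.44 at 9 h and fell by 0.52 at 26 h. For Me1, Stard3 and Nr1h2, time and scan day cannot be told apart in these opposite changes.

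Cell type markers were read in the same average, with limma counts at an unadjusted p under 0.05 in brackets. Of 9 measured astrocyte markers 1 fell (Slco1c1) and 0 rose (2 lower, 0 higher), with all 9 below 0 and a median of -0.20. Of 10 oligodendrocyte lineage markers 1 fell (Cspg4) and 0 rose (4 lower, 0 higher), with all 10 below 0 and a median of -0.29. Of 10 neuron markers 2 rose (Slc17a7 and Neurod6) and 0 fell (4 higher, 0 lower), with a median of 0.13. Of 8 microglia markers, 6 of them well above background on all arrays, 0 passed (0 higher, 0 lower; median 0.14). Of 9 fibroblast, meningeal and vascular markers 1 fell (Kdr) and 0 rose (3 lower, 1 higher), with a median of -0.20. The summed astrocyte level ran from 5.90 to 6.35 untreated and 5.86 to 6.22 blocked at 9 h, and from 6.06 to 6.54 untreated and 5.95 to 6.24 blocked at 26 h. Their part in the change of the sterol genes was not tested.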

How the data were processed

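Each of the 12 RNA samples was labelled with Cy3 and hybridised to its own Agilent rat array, and, per the labels, replicates are independent cultures. The deposited scanner output was made with Feature Extraction 10.5.1.1 (Agilent), per the file headers, and its processed signal is an intensity corrected for background within the array. A matrix of log2 values was deposited too, and it equals log2 of that intensity minus a constant per array (slope 1.000, column medians 7.57 to 7.75). The rule behind the constants, and so their centring, is not stated.

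Control spots and 3751 outlier spot values were left out, and spots of a probe were averaged on the log2 scale after subtracting the array's 75th percentile. Probes had to be well above background on every array of some group (24034 of 30367). Probes were named through RefSeq accessions (18004 matched, 12363 did not), and the brightest kept probe stands for a gene. A probe saturated on all arrays of a group gives no change. Coordinates come only from the promoter table.

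All arrays entered 1 fit with 4 group means in limma 3.58.1 under R 4.3.3 (lmFit and eBayes, two-sided, Benjamini-Hochberg over 21250 targets, threshold 0.05). The code of the fit was run on simulated data with independent arrays. The simulation held no replicate, slide or scan day structure, so it cannot show how these affect the results. Every listed gene is named by its role. Values on every array are given for genes past the threshold in either average, for Fdft1 and for the Insig and Srebf genes. The listed genes, the other pathway list and the marker lists were chosen with earlier results of these data known. After removal of group means, untreated and blocked arrays with the same number and time had correlations over targets of 0.177 to 0.657, all over 0.1, so the number was also fitted as a block. Across times the correlations within a number ran from 0.445 to 0.683 for replicates 1 and 3. For replicate 2 they ran from -0.0413 (untreated 9 h and 26 h) to 0.253. The labels do not say what a number marks. Alternatives were normexp background correction (offset 50, on median signals), quantile and median scaling, the deposited matrix, no filter on dim probes, the mean of a gene's probes, array weights, replicate and slide blocks, fits without each array or replicate number and, chosen after the data were seen, outlier spots kept.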

Additional observations from a re-analysis of the deposited data

Results flagged for a closer look

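The effect of blockade differed between 26 h and 9 h for 6 genes by the interaction term of limma, each with 3 arrays in each of 4 groups. These were 3 higher and 3 lower of 29 genes, where 12.7% of all targets passed as higher and 15.9% as lower. The effect at 26 h minus that at 9 h was 1.40 on the log2 scale for Tm7sf2 (limma adjusted p = 0.00571), 1.26 for Fdft1 (limma adjusted p = 0.00188) and 0.57 for Npc1 (limma adjusted p = 0.0125). It was -1.23 for Dhcr7 (limma adjusted p = 0.00646), -0.89 for Abcg1 (limma adjusted p = 0.0436) and -0.84 for Scap (limma adjusted p = 0.00333). Time and scan day cannot be told apart in this difference. Groups of 3 arrays were too small for a check of single arrays standing apart.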

How the results depend on the processing

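No change of a called gene turned its direction under any of the 25 alternatives run. In the average, Abcg1 and Scd were called in 21 of 25, Dhcr7 in 17, and Insig1 and Mvk in 9 each. Their adjusted p in limma ran from 7.26e-04 to 0.511 for Abcg1, from 0.00330 to 0.484 for Scd, from 7.08e-04 to 0.519 for Dhcr7, from 0.00253 to 0.690 for Insig1 and from 0.00703 to 0.633 for Mvk. For the counts that follow, brackets give the share of all targets called. The count of genes called in the average, 5 (4.45%), was 2 with median scaling (3.41%) and 3 with no filter on dim probes (2.70%). It was 10 with the replicate block (13.2%) and 8 with the slide block (10.8%). At 9 h the count, 8 (21.1%), was 4 with median scaling (19.3%) and 13 with the replicate block (35.9%). At 26 h the count, 4 (16.3%), was 15 with array weights (34.9%) and 8 with the replicate block (31.7%). For the difference between times the count, 6 (28.6%), was 4 with the slide block (16.6%). It was 10 with array weights (38.3%) and 10 with the replicate block (44.7%). For the change over time the count, 2 (12.7%), was 1 with median scaling (11.7%), the deposited matrix (10.7%) or no filter (7.73%). It was 8 with the replicate block (26.8%) and 9 with the slide block (24.4%). Leaving out an array or a replicate number gave 0 to 8 in the average (0.169% to 4.62%) and 0 to 10 at 9 h (0.00% to 21.9%). It gave 0 to 11 at 26 h (0.0941% to 21.1%), 0 to 11 for the difference (0.0141% to 29.1%) and 0 to 3 over time (0.772% to 12.1%). The 0 in each case included the fit without replicate 2, which called 0.00% to 0.772% of all targets. In the average that fit had 4 of the 29 genes higher and 0 lower at an unadjusted p under 0.05 in limma. The cause was not tested. Array number and saturation limit the precision: Hmgcs1 and Msmo1 have no readable change.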
